A study of Mus musculus with 12 samples.

Results

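Glycerol injected into muscle breaks muscle fibres down, and the myoglobin they release is filtered by the kidney and taken up by the tubule, where its heme is toxic. The response of renal cortex to this injury was measured in control mice, which carry floxed alleles of the glucocorticoid receptor gene (genotype nr3c1 flox/flox) and no Cre recombinase, so that the receptor is intact. The data are 6 Affymetrix mouse gene arrays out of 12 in the series. On 3 arrays the RNA came from cortex dissected 24 hours after intramuscular glycerol (acute kidney injury, AKI), and on 3 from a separate cohort of uninjected, healthy mice of the same genotype. The other 6 arrays hold the same pair of conditions in mice with Pax8-Cre and the same floxed alleles, which lack the receptor in tubular epithelium. They entered the fit for its error and serve here as a comparison for the size of the response.

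The genes described are the 19938 genes for which 1 of the 35556 probe sets carried exactly 1 gene symbol. When more than 1 such probe set was present for a gene, the one with the highest mean over the 12 arrays stood for it. Values are deposited log2 expression values, and a difference is AKI minus healthy on that scale, so that a difference of 1 is 2-fold. Each is given with the standard error of the fit, for 3 arrays in each group. A gene rose or fell only where it passed an adjusted p of 0.05 (limma, Benjamini-Hochberg adjustment over all 19938 genes). The labels do not say that the replicates of a group are separate animals, so the tests read the scatter among arrays as deposited, and that scatter may be technical. Injected and uninjected mice were separate cohorts, so any difference between cohorts is part of each value.

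The renal cortex is mostly proximal tubule, which reclaims glucose, amino acids, phosphate and filtered protein through a brush border, breaks down amino acids, makes glucose and creatine, and burns fat in many mitochondria. Further along lie the thick ascending limb, the distal convoluted and connecting tubule and the collecting duct, which adjust salt, calcium, magnesium, acid and water. After injury, surviving tubule cells are known to lose transport and metabolic functions for a time and to switch on stress and repair genes. Because whole cortex was measured, fewer cells of a type and less RNA per cell cannot be told apart in any value below.

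The arrays had medians between 7.0 and 7.09. Control AKI replicate 1 stood apart from its group: its spread over genes was the narrowest of the 12 arrays (SD 1.88), and limma's array quality weight for it was 0.182, the lowest. Without it 6008 genes passed, against 5715 with all arrays. Defining genes of proximal tubule were present in the cortex, with Lrp2, the endocytic receptor megalin, at 13.10, 13.18 and 13.15 on the healthy arrays and 11.52, 11.82 and 11.93 on the AKI arrays. Nr3c1, the gene of the glucocorticoid receptor, was at 9.65, 9.48 and 9.52 on the healthy arrays and 8.82, 8.89 and 8.86 on the AKI arrays. It fell by 0.69 ± 0.10 (adjusted p = 6.56e-05) in these receptor-intact mice.

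Of the 19938 genes, 5715 passed (28.7%), 2708 higher (13.6%) and 3007 lower (15.1%) after AKI. A further condition of at least 2-fold left 1306 genes (6.55%), 519 higher (2.6%) and 787 lower (3.95%). More genes fell than rose at 2-fold and at 4-fold (92 higher and 134 lower), but the largest differences were increases. At 8-fold or more there were 27 higher and 17 lower genes, at 16-fold 10 and 1, and at 32-fold 5 and 0. The 3 AKI arrays did not overlap the 3 healthy arrays in 7905 genes (39.6%). The median difference over all genes was 0.00, and the median standard error was 0.13.

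**Figure D1:**
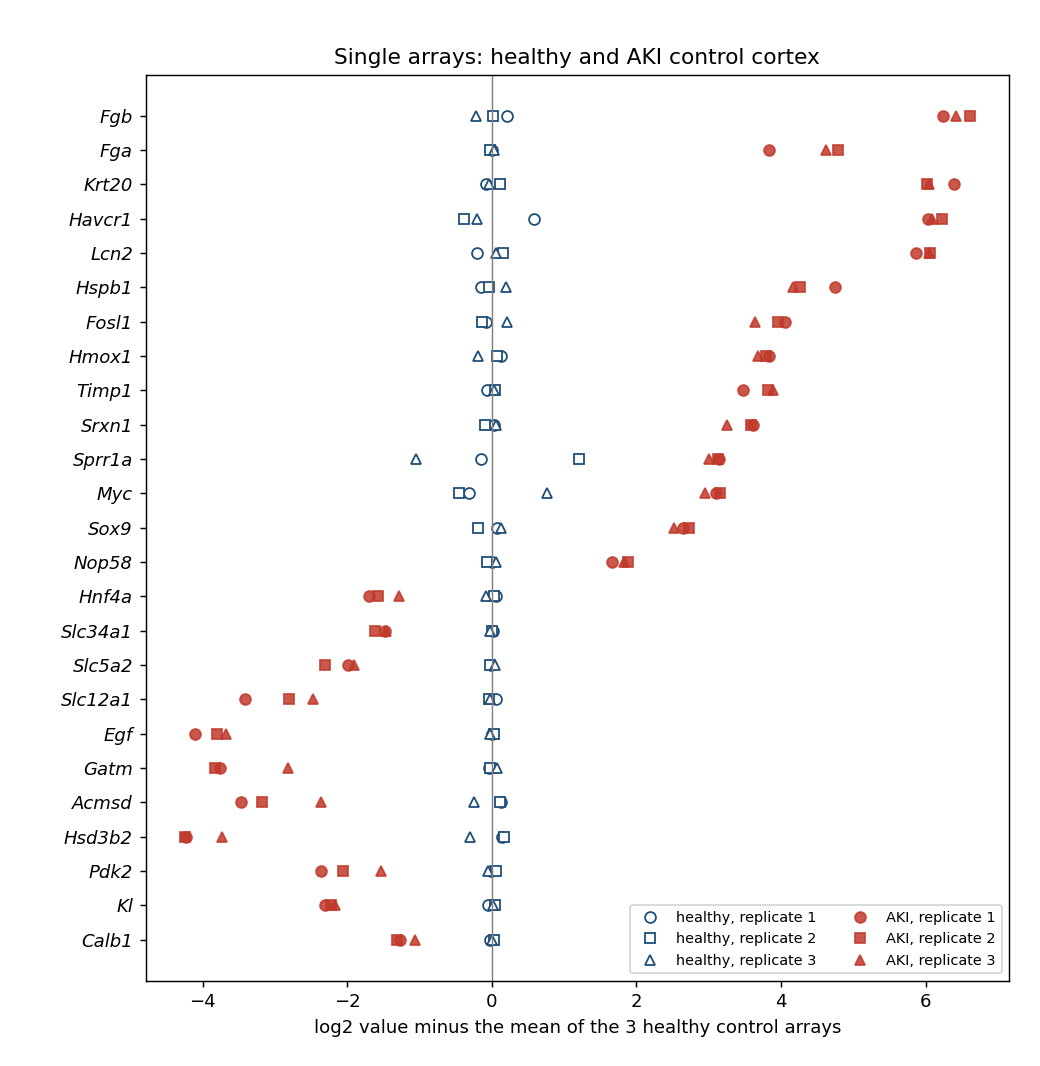
Log2 values of 25 genes on each of the 6 control arrays, drawn as the distance from the mean of the 3 healthy arrays, with the healthy arrays as open symbols, the AKI arrays as filled symbols and 1 symbol shape per replicate number. Fgb lies near 6 and Hsd3b2 near -4 on all 3 AKI arrays, while Sprr1a and Myc show the widest spread among the healthy arrays.

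Genes that mark the identity of injured and repairing tubule epithelium mostly rose. Of the list of tubule injury and repair genes that mark cell identity, 14 of 20 rose (70%) and 3 fell (15%). Krt20, a keratin of epithelial lining cells, was at 5.40, 5.60 and 5.45 on the healthy arrays and 11.88, 11.51 and 11.53 on the AKI arrays. Its groups lay far apart, and the difference (6.15 ± 0.28, adjusted p = 1.15e-08) had the second smallest p-value of all genes. Sox9, a transcription factor of epithelial progenitors, was at 6.58, 6.31 and 6.63 on the healthy arrays and 9.15, 9.24 and 9.03 on the AKI arrays and rose by 2.63 ± 0.12 (adjusted p = 1.15e-08). The cell surface receptor Cd44 (1.30 ± 0.12) and the secreted chaperone Clu (1.76 ± 0.15) rose as well. The members that fell were Aqp1, the water channel of proximal tubule (-1.71 ± 0.12), Pax2, a nephron development factor (-0.43 ± 0.10), and Cdh2, N-cadherin (-0.32 ± 0.10; -0.38 to -0.28 with 1 control array left out, and not called in 5 of those 6 fits). Cdh6, Prom1 and Vcam1 did not pass, at 0.07, 0.00 and -0.09.

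The share of keratins that rose was near that of all genes. Of 52 keratin genes 6 rose (11.5%, against 13.6% over all genes) and 0 fell, and keratins of simple epithelium rose, with Krt18 at 1.62 ± 0.23, Krt8 at 1.48 ± 0.17 and Krt19 at 0.92 ± 0.20. Genes of the cornified envelope, the crosslinked shell of barrier epithelia, rose strongly. Sprr2g (3.41 ± 0.22), Sprr1a (3.09 ± 0.42) and Sprr2f (2.93 ± 0.22) encode small proline-rich proteins of this envelope. Sprr1a was at 7.94, 9.30 and 7.05 on the healthy arrays and 11.24, 11.22 and 11.09 on the AKI arrays. Its healthy arrays were far apart, with replicate 2 the highest, yet every AKI array was above them. Claudins, which seal the junctions between tubule cells, moved in both directions. Cldn4 (2.14 ± 0.16), Cldn1 (1.30 ± 0.17) and Cldn7 (1.09 ± 0.12) rose, while Cldn10 (-1.88 ± 0.21), the sodium pore of the loop, and Cldn8 (-1.23 ± 0.14) fell. In all, 5 of 28 claudin genes rose (17.9%) and 3 fell (10.7%), shares near the 13.6% and 15.1% over all genes.

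Interleukin-6 cytokines signal through a shared receptor subunit, gp130 (Il6st), to the factor STAT3, which switches on acute phase genes that the liver is best known for. Ligands of this family rose in the cortex: 4 of 7 rose and 0 fell. Il6 itself was at 3.17, 3.52 and 3.27 on the healthy arrays and 4.76, 6.03 and 5.25 on the AKI arrays and rose by 2.03 ± 0.25 (adjusted p = 1.72e-05). Clcf1 (2.08 ± 0.13), Lif (1.61 ± 0.13) and Il11 (0.86 ± 0.12) rose as well, while Osm (-0.18 ± 0.17) and Il27 (-0.10 ± 0.16) did not pass. Of the receptors, Osmr, which pairs with gp130 to bind oncostatin M, rose by 2.04 ± 0.20 (adjusted p = 2.36e-06). Il6ra rose by 0.44 ± 0.10, Il6st was at -0.03 ± 0.18 without passing, and Il22ra1, a subunit of the interleukin-22 receptor, fell by 0.94 ± 0.20. In the signalling group 6 of 12 rose, among them the feedback inhibitor Socs3 (2.26 ± 0.21), Stat3 (1.66 ± 0.19) and the transcription factors Cebpd (1.84 ± 0.25) and Cebpb (1.56 ± 0.18).

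Of the secreted acute phase genes that this pathway is known to drive, 12 of 19 rose and 0 fell. The fibrinogen genes were among the largest rises. Fgb was at 6.25, 6.06 and 5.83 on the healthy arrays and 12.29, 12.66 and 12.47 on the AKI arrays, a difference of 6.43 ± 0.39, adjusted p = 3.99e-08. Fga was at 6.60, 6.57 and 6.63 on the healthy arrays and 10.44, 11.40 and 11.22 on the AKI arrays (difference 4.42 ± 0.32). The single AKI arrays of Fga differed more than those of Fgb, with replicate 1 the lowest, and none came near a healthy array. Serpina3n, a protease inhibitor, rose by 2.35 ± 0.15 (adjusted p = 7.15e-08) and Timp1, the inhibitor of matrix metalloproteinases, by 3.73 ± 0.30 (adjusted p = 4.25e-07). The liver-type members Itih3 (0.08 ± 0.12), Itih4 (0.07 ± 0.11) and A2m (0.02 ± 0.15) did not pass.

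The bases before the start of Fgb are shown because it had the largest difference of all genes and because motifs of factors discussed here occur in them. Only the AP-1, STAT and short HNF1 matches are marked. The C/EBP letters TTGCNNAA also occur in the stretch, as ttgctcaa, and are left in lower case. They come from the RefSeq promoter table of build GRCm38.p6 (chr3:83049864-83050043, minus strand), read 5′ to 3′ toward the gene start. Capitals mark an AP-1 match (TGANTCA), a STAT match (TTCNNNGAA) and a short HNF1 match (GTTAAT, any 2 bases, then TT, here on the opposite strand), which begin 173, 162 and 33 bases before the start.
Fgb: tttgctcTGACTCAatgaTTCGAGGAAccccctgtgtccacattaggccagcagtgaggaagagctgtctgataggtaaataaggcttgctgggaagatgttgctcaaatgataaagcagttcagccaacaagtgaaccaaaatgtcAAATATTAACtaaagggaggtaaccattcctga
A match is a run of letters and not a measured binding site.

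Coagulation genes moved in both directions around the fibrinogens. Of the clotting factors 6 of 17 rose (35.3%) and 3 fell (17.6%), against 13.6% and 15.1% over all genes, so the share that fell was near that of all genes. F3, tissue factor, which starts clotting, rose by 1.74 ± 0.16 (adjusted p = 1.38e-06), and F13b, the carrier subunit of the factor that crosslinks fibrin, fell by 2.08 ± 0.16 (adjusted p = 2.65e-07). F5 (-1.47 ± 0.25) and F8 (-1.06 ± 0.20) fell, and F7 (-0.10 ± 0.16), F12 (0.03 ± 0.17) and Vwf (0.04 ± 0.13) did not pass. Of the natural anticoagulants 3 of 9 rose (33.3%) and 2 fell (22.2%), with a median of -0.20. Those that rose were the protein C receptor Procr (2.60 ± 0.25), thrombomodulin (Thbd, 1.83 ± 0.17) and protein S (Pros1, 1.14 ± 0.13). Protein C itself (Proc) fell by 0.66 ± 0.12, as did Tfpi2, a protease inhibitor (-0.50 ± 0.15), whose call was lost without AKI replicate 1 or 2 or healthy replicate 1 or 3. In the plasmin system 5 of 9 rose. Plaur, the urokinase receptor, was at 6.83, 6.84 and 6.85 on the healthy arrays and 10.51, 10.50 and 10.11 on the AKI arrays, and its groups did not overlap (difference 3.53 ± 0.23, adjusted p = 7.56e-08). Anxa2 (2.46 ± 0.17) and S100a10 (2.13 ± 0.14), which together bind plasminogen on cells, and the activator Plat (1.29 ± 0.10) rose. Urokinase (Plau, -0.34 ± 0.17) and plasminogen (Plg, 0.03 ± 0.14) did not pass.

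The AP-1 factors are pairs of proteins of the FOS, JUN and ATF families that cells make soon after stress. Of 14 AP-1 genes 8 rose and 0 fell. Fosl1 was at 6.26, 6.20 and 6.54 on the healthy arrays and 10.40, 10.29 and 9.98 on the AKI arrays and rose by 3.89 ± 0.22 (adjusted p = 3.26e-08). Atf3 was at 6.55, 6.55 and 6.52 on the healthy arrays and 10.66, 9.86 and 9.59 on the AKI arrays and rose by 3.50 ± 0.31 (adjusted p = 7.84e-07). Maff (1.94 ± 0.19), Jun (1.67 ± 0.19) and Fosl2 (1.51 ± 0.18) followed, whereas Fosb (0.32 ± 0.17), Jdp2 (0.10 ± 0.11) and Batf3 (-0.05 ± 0.13) did not pass. Of other early response genes 23 of 33 rose and 1 fell, Bhlhe41, a repressor tied to the circadian clock (-0.42 ± 0.15), whose call was lost when AKI replicate 1 or 2 or healthy replicate 1 or 2 was left out. Myc, which drives growth genes, was at 7.27, 7.13 and 8.35 on the healthy arrays and 10.69, 10.74 and 10.53 on the AKI arrays. Here too the healthy arrays were uneven, with replicate 3 above the other 2, and none reached an AKI array (difference 3.07 ± 0.32, adjusted p = 3.71e-06). Klf6 (2.43 ± 0.18), Runx1 (1.79 ± 0.15) and Nr4a1 (1.32 ± 0.12) rose, and Egr3 (0.13 ± 0.16), Egr4 (-0.05 ± 0.18) and Hes1 (0.14 ± 0.13) did not pass.

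Promoter windows with the AP-1 letters TGANTCA, searched on both strands over the 250 bases before and 50 after each annotated start, were found in 13.4% of the genes at least 2-fold higher and 5.94% of those at least 2-fold lower. The share over all 15614 genes with a window was 8.08%. The stretches of 3 genes that rose are shown, with the AP-1 letters in capitals, as examples chosen after their matches were seen. Srxn1 (chr2:152105404-152105523, plus strand) makes sulfiredoxin, which repairs peroxiredoxins, and Sprr1a (chr3:92485882-92486041, minus strand) and Plaur (chr7:24462363-24462482, plus strand) were described above. Srxn1 and Sprr1a each hold 2 matches.
Srxn1: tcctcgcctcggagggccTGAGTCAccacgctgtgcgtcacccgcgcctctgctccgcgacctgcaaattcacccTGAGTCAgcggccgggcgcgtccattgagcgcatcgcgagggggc
Sprr1a: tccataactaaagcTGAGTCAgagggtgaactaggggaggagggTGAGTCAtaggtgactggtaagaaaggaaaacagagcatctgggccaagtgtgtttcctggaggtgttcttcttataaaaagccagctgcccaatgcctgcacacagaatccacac
Plaur: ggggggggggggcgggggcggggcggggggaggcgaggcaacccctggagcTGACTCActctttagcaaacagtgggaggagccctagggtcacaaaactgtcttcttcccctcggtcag
No factor's binding was measured, so these letters are a description of the windows.

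Heme from myoglobin is opened by heme oxygenase to biliverdin, iron and carbon monoxide. Hmox1, which encodes the inducible enzyme, was at 9.28, 9.23 and 8.97 on the healthy arrays and 12.99, 12.96 and 12.84 on the AKI arrays, a difference of 3.77 ± 0.21, adjusted p = 2.18e-08. Blvrb, a biliverdin reductase, rose by 1.79 ± 0.22, and the heme exporter Flvcr1 rose by 1.0 ± 0.18, while its relative Flvcr2 fell by 1.59 ± 0.17. The first enzyme of heme synthesis, Alas1, rose by 0.97 ± 0.17, and the later ones Cpox (-0.54 ± 0.12), Ppox (-0.56 ± 0.10) and Uros (-0.56 ± 0.11) fell. Over the heme group 7 of 20 rose (35%) and 8 fell (40%), against 13.6% and 15.1% over all genes. Of iron genes 7 of 23 rose (30.4%) and 5 fell (21.7%). Ceruloplasmin (Cp, 1.27 ± 0.14), the importer Slc39a14 (1.23 ± 0.14) and mitoferrin (Slc25a37, 1.0 ± 0.11) rose, and Aco1, the iron-sensing aconitase, fell by 0.81 ± 0.10. Tfrc, the transferrin receptor (0.15 ± 0.19), and Hamp, hepcidin (0.14 ± 0.21), did not pass.

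Targets of NRF2, the factor that answers oxidants and electrophiles, and glutathione genes rose more often than they fell: 28 of 56 rose and 12 fell (median 0.32). Srxn1 was at 8.82, 8.70 and 8.85 on the healthy arrays and 12.40, 12.38 and 12.04 on the AKI arrays and rose by 3.48 ± 0.19 (adjusted p = 1.86e-08). Akr1b8, an aldo-keto reductase, was at 6.77, 6.56 and 6.40 on the healthy arrays and 10.67, 10.99 and 10.77 on the AKI arrays (difference 4.23 ± 0.21). Txnrd1 (1.81 ± 0.15), Nqo1 (1.78 ± 0.13), Cbr3 (2.58 ± 0.19) and the pentose pathway enzyme Pgd (1.76 ± 0.11) rose too. Slc7a11, which imports cystine for glutathione, was at 5.09, 4.88 and 4.90 on the healthy arrays and 9.82, 8.98 and 8.52 on the AKI arrays (difference 4.15 ± 0.35). Glutathione genes divided: Mgst1 (2.13 ± 0.14), Gsta4 (1.77 ± 0.14) and Gstp1 (1.17 ± 0.09) were among 10 that rose, and Chac2 (-1.2 ± 0.20), which degrades glutathione, and the synthetase Gss (-0.62 ± 0.10) among 6 that fell, of 22. Without healthy replicate 3 the number that fell was 3. Enzymes that remove superoxide went the other way, with Sod2 (-1.03 ± 0.10) and Sod3 (-1.23 ± 0.13) lower and Sod1 at -0.18 ± 0.12 without passing.

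Genes that cells switch on when translation is throttled or amino acids are short, the integrated stress response, rose more often than they fell. Of 53 genes listed with it and measured 34 rose and 6 fell, with a median of 0.72. Of 6 genes that sense or gate the response 1 rose and 1 fell (Eif2ak1, a heme-sensing kinase, -0.45 ± 0.13, a call lost without healthy replicate 1). Of 10 amino acid carriers 6 rose and 0 fell, and of 13 synthesis genes 6 rose and 4 fell. Of its factors 10 of 12 rose and 1 fell. Atf4, the main factor, was at 8.54, 8.63 and 8.43 on the healthy arrays and 10.12, 10.13 and 9.83 on the AKI arrays and rose by 1.49 ± 0.12 (adjusted p = 4.49e-07). Ddit3 (2.14 ± 0.19) and the phosphatase subunit Ppp1r15a (1.84 ± 0.19), which ends the response, rose. Vldlr, a lipoprotein receptor, fell by 0.97 ± 0.10. Of 12 tRNA ligase genes measured 11 rose (9 without AKI replicate 2), and the median over the 12 was 0.78. Gars (1.03 ± 0.10), Wars (0.98 ± 0.11) and Tars (0.85 ± 0.12) were among those that rose, and Iars (0.47 ± 0.23) did not pass. Asparagine synthetase (Asns, 2.16 ± 0.21), Mthfd2 (2.30 ± 0.15) and Psat1 (1.67 ± 0.22) rose, but in the same synthesis group Cbs (-1.79 ± 0.12), Cth (-0.78 ± 0.10), Shmt1 (-0.90 ± 0.18) and Shmt2 (-1.31 ± 0.15) fell.

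Chaperone genes of the heat shock and endoplasmic reticulum lists rose more often than they fell, and DnaJ co-chaperones moved in both directions. Of heat shock genes 19 of 37 rose and 0 fell. Hspb1, a small heat shock protein, was at 7.42, 7.53 and 7.77 on the healthy arrays and 12.31, 11.83 and 11.74 on the AKI arrays, and Hspa1a, inducible HSP70, was at 8.0, 8.32 and 8.27 on the healthy arrays and 11.43, 11.08 and 10.76 on the AKI arrays. The differences were 4.39 ± 0.24 and 2.89 ± 0.22. Bag3 (1.59 ± 0.16), Cryab (1.55 ± 0.17) and Hspb8 (1.44 ± 0.11) rose, and the constitutive Hspa8 (-0.05 ± 0.10) did not pass. Of the cytosolic CCT folding complex 7 of 10 genes rose and 1 fell, Cct6b (-0.66 ± 0.18), whose call was lost without AKI replicate 3 or healthy replicate 2. Of 45 DnaJ proteins, which hand clients to HSP70, 8 rose (17.8%) and 10 fell (22.2%), against 13.6% and 15.1% over all genes. The number that rose was 5 without AKI replicate 2 or without healthy replicate 2. Dnajb1 was at 1.13 ± 0.14 and Dnajc12 at -2.67 ± 0.13. Of the endoplasmic reticulum chaperones 10 of 17 rose and 0 fell, among them Creld2 (2.14 ± 0.22), Sdf2l1 (1.97 ± 0.23) and Manf (1.30 ± 0.15). Pdia3 (0.02 ± 0.11) and Dnajc3 (0.04 ± 0.12) did not pass, nor did Ern1, a sensor of unfolded protein (0.02 ± 0.11).

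Genes of ribosome assembly rose together. Of 60 nucleolar and ribosome assembly genes 57 rose and 0 fell, with a median of 0.85 against 0.00 over all genes. Nop58, a core protein of the particles that modify ribosomal RNA, was at 8.49, 8.42 and 8.54 on the healthy arrays and 10.14, 10.37 and 10.30 on the AKI arrays (difference 1.79 ± 0.14). Nop56 (1.56 ± 0.12), Mybbp1a (1.57 ± 0.11), Ddx21 (1.46 ± 0.12) and Grwd1 (1.30 ± 0.11) rose by similar amounts. The exceptions were Ubtf (-0.08 ± 0.11), Gnl3l (-0.07 ± 0.11) and Rrs1 (0.53 ± 0.20), which did not pass. Of cytosolic ribosomal proteins 42 of 60 rose and 0 fell, at a median of 0.43, and without AKI replicate 2 the number was 27. Mitochondrial ribosomal proteins did not share this: 12 of 77 rose (15.6%) and 7 fell (9.09%), against 13.6% and 15.1% over all genes. Their median was 0.04, and 5 to 7 rose without any one of AKI replicate 2, AKI replicate 3, healthy replicate 1 or healthy replicate 2. Many ribosomal protein genes have near-identical pseudogenes, so their probe sets may read several loci.

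Proteasome genes rose as well. Of 35 genes of the constitutive proteasome 30 rose and 0 fell (median 0.66). Psma5, a subunit of the core, was at 8.41, 8.29 and 8.30 on the healthy arrays and 9.74, 9.69 and 9.51 on the AKI arrays (difference 1.31 ± 0.14). Pomp, which assembles the core (0.90 ± 0.10), Psmd14 (1.14 ± 0.13) and Psmb4 (0.93 ± 0.12) rose. None of 5 genes of the immunoproteasome, the form induced by interferon, passed in limma, and at an unadjusted p of 0.05 1 was higher and 0 lower. Psmb8 was at 0.08 ± 0.18 and Psme2 at 0.13 ± 0.10.

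**Figure D2:**
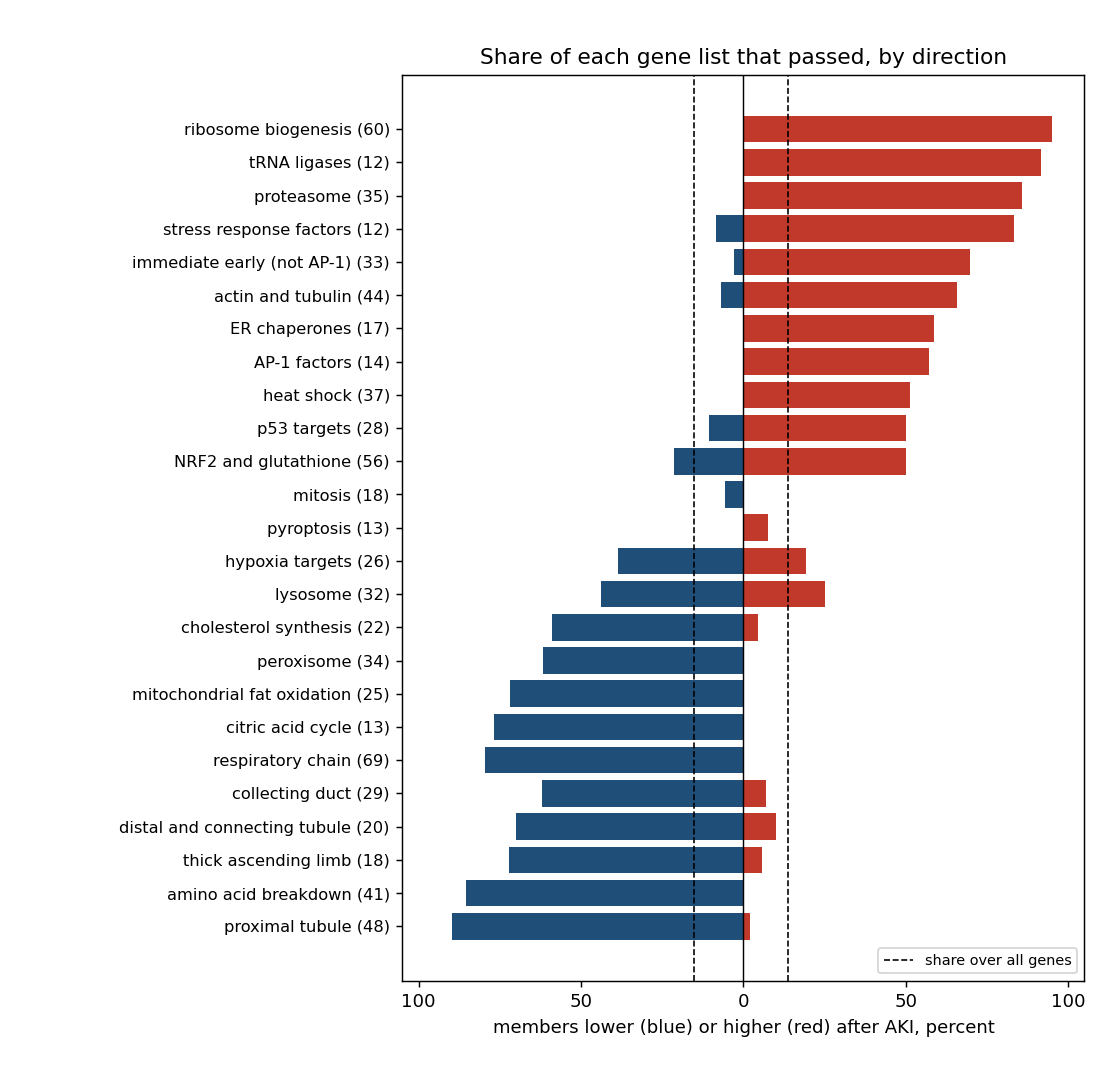
Share of the measured members of 25 gene lists that passed, in percent, higher after AKI to the right in red and lower to the left in blue, with the number measured in brackets. The dashed lines are the shares over all genes (13.6% higher and 15.1% lower), and the bars run from ribosome biogenesis, nearly all higher, to proximal tubule, nearly all lower.

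The cytoskeleton and its attachments changed with the epithelium. Of actin and tubulin genes 29 of 44 rose and 3 fell. Tubb2a, a beta tubulin, was at 7.46, 7.64 and 7.64 on the healthy arrays and 10.23, 10.25 and 10.24 on the AKI arrays, with no overlap between the groups and a difference of 2.66 ± 0.13, adjusted p = 1.15e-08. Tubb6 (2.68 ± 0.18), Actn1 (1.88 ± 0.12), Tpm4 (1.43 ± 0.10) and Arpc1b (1.58 ± 0.12) rose, and Actn4 (-0.01 ± 0.13), Acta2 (-0.03 ± 0.12) and the brush border bundler Vil1 (0.06 ± 0.14) did not pass. Myl9 fell by 1.06 ± 0.17. Among targets and partners of YAP, a factor that reads cell tension, 9 of 14 rose, with Ankrd1 at 2.08 ± 0.18, Ccn1 at 1.99 ± 0.27 and Ccn2 at 0.94 ± 0.15. Of integrins, which hold cells to matrix, 11 of 31 rose, among them Itga6 (1.39 ± 0.16) and Itga3 (1.21 ± 0.11), and Itga8 (-1.11 ± 0.13) fell. Annexins rose in 6 of 12 cases, with Anxa3 at 7.42, 7.51 and 7.38 on the healthy arrays and 10.50, 10.39 and 10.30 on the AKI arrays (difference 2.96 ± 0.16). The collagens of vessel-type basement membrane Col4a1 (1.2 ± 0.14) and Col4a2 (1.23 ± 0.15) rose, and those of the glomerular filter Col4a3 (-0.88 ± 0.11) and Col4a4 (-0.97 ± 0.11) fell.

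Proteases that cut matrix rose in 13 of 22 cases and fell in 2. Adamts1 (2.40 ± 0.19), Adamts4 (2.18 ± 0.17), Mmp10 (1.73 ± 0.22) and Adam8 (1.30 ± 0.11) led. Their inhibitors did not move together. Timp1 was at 5.53, 5.64 and 5.63 on the healthy arrays and 9.07, 9.41 and 9.50 on the AKI arrays, while Timp2 fell by 0.63 ± 0.13, Timp3 fell by 1.22 ± 0.17 and Timp4 (-0.13 ± 0.16) did not pass.

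Growth factor genes moved in both directions. Egf, made by the thick ascending limb and distal tubule, was at 12.77, 12.79 and 12.74 on the healthy arrays and 8.67, 8.97 and 9.09 on the AKI arrays. Its difference (-3.86 ± 0.13, adjusted p = 9.48e-10) had the smallest p-value of all genes. Of the other ligands of the EGF receptor family Hbegf rose by 1.54 ± 0.24 and Nrg1 by 1.17 ± 0.13, whereas Ereg (-0.11 ± 0.12), Epgn (0.00 ± 0.12) and the receptor Egfr (-0.17 ± 0.11) did not pass. Rhbdf2, which helps to release these ligands from the membrane, rose by 1.09 ± 0.10 (adjusted p = 1.54e-06). Feedback inhibitors of receptor signalling rose in 11 of 19 cases, among them Spry2 (1.21 ± 0.13), Dusp5 (1.94 ± 0.23) and Phlda1 (1.62 ± 0.20). Of secreted repair factors 9 of 24 rose (37.5%) and 6 fell (25%), with a median of 0.19, against 13.6% and 15.1% over all genes. Among them Tgfb1 (0.99 ± 0.12), Il34 (1.46 ± 0.18) and Pdgfa (0.70 ± 0.12) rose, and Bmp7 (-1.37 ± 0.15), Fgf1 (-1.0 ± 0.17) and Igf1 (-0.67 ± 0.11) fell.

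Genes of the p53 pathway rose in 14 of 28 cases and fell in 3. Plk3, a stress kinase, was at 6.82, 7.03 and 6.99 on the healthy arrays and 10.46, 10.06 and 10.08 on the AKI arrays (difference 3.25 ± 0.26). Gadd45a (1.95 ± 0.19), Btg2 (1.58 ± 0.14) and the death receptor Tnfrsf10b (1.21 ± 0.16) rose. Sesn1 (-0.64 ± 0.13) fell, and Perp (-0.03 ± 0.12) and Polk (0.06 ± 0.13) did not pass.

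Cell death genes were called in part. Of apoptosis regulators 8 of 23 rose (34.8%) and 2 fell (8.7%), against 13.6% and 15.1% over all genes. Rises lay on both sides of the balance, in the pro-death member Bak1 (1.23 ± 0.13) and the protectors Bcl2l1 (0.80 ± 0.11) and Mcl1 (0.66 ± 0.11). The protector Bcl2 fell (-0.72 ± 0.15). Mlkl, which perforates the membrane in necroptosis, was at 5.99, 5.92 and 6.07 on the healthy arrays and 8.61, 8.85 and 8.62 on the AKI arrays and rose by 2.70 ± 0.19 (adjusted p = 1.28e-07). Tnfrsf1a, a receptor of tumour necrosis factor, rose by 1.57 ± 0.12, and Tnf itself (0.03 ± 0.14) did not pass. Of 13 pyroptosis genes Il1b alone rose (0.86 ± 0.16), and Casp1 (0.00 ± 0.19) and Gsdmd (-0.05 ± 0.12) did not pass. In the ferroptosis list Acsl4, which loads oxidisable fat into membranes, rose by 1.51 ± 0.11 (adjusted p = 2.12e-07) and Gch1, which makes an antioxidant cofactor, by 2.11 ± 0.16 (adjusted p = 2.64e-07). Gpx4, the enzyme that repairs lipid peroxides, was at -0.07 ± 0.12 and did not pass.

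No mitosis gene passed as higher at 24 hours. Of 18 mitosis genes 0 rose and 1 fell, Nusap1, a spindle protein (-0.45 ± 0.13), whose call was lost without healthy replicate 1, with Cdk1 at -0.01 ± 0.15, Birc5 at -0.07 ± 0.15 and Cenpf at 0.05 ± 0.13. At an unadjusted p of 0.05 0 of them were higher and 1 lower (limma). Pcna, the replication clamp, rose by 0.88 ± 0.09 (adjusted p = 5.84e-06). Cdk4 (0.58 ± 0.10) and Cdk6 (0.80 ± 0.18) rose, while Ccnd1, cyclin D1, fell by 1.08 ± 0.13 (adjusted p = 1.39e-05) and Rbl2, a brake of the cycle, fell by 1.19 ± 0.12 (adjusted p = 3.31e-06). The cell cycle inhibitor Cdkn1b fell by 0.59 ± 0.12, a call that was lost when its more variable probe set was used.

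Proximal tubule genes fell in each segment read. Of 48 genes of its brush border, uptake and carriers 1 rose and 43 fell (median -1.29). The genes of the first segment, S1, fell in 10 of 10 cases, those of S2 in 6 of 6 and those of S3 in 10 of 12. In S1 the glucose carrier Slc5a2 (SGLT2) was at 11.56, 11.54 and 11.61 on the healthy arrays and 9.58, 9.26 and 9.67 on the AKI arrays, and the phosphate carrier Slc34a1 at 13.92, 13.91 and 13.89 on the healthy arrays and 12.42, 12.29 and 12.43 on the AKI arrays. The differences were -2.07 ± 0.13 and -1.52 ± 0.10, with no overlap between the groups. The lactate carrier Slc5a12 (-2.90 ± 0.34) and the neutral amino acid carrier Slc6a19 (-2.14 ± 0.24) fell. In S2 Slc13a3 (-2.22 ± 0.20), a dicarboxylate carrier, and Slc47a1 (-1.54 ± 0.14), which secretes organic cations, fell. In S3 Slc7a13, an amino acid carrier, was at 12.63, 12.21 and 12.62 on the healthy arrays and 9.68, 10.24 and 9.73 on the AKI arrays (difference -2.60 ± 0.18). The exceptions lay in S3, where Slc5a1 (SGLT1, -0.09 ± 0.17) and Slc6a18 (0.14 ± 0.10) did not pass.

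Every brush border enzyme measured in the list fell, 11 of 11, with a median of -1.35 and 8 at least 2-fold lower. Among them were Mep1b (-2.39 ± 0.15) and Anpep (-2.03 ± 0.21), which cut peptides, and Ace (-1.40 ± 0.16). The endocytic receptors Lrp2 (megalin, -1.39 ± 0.12) and Cubn (cubilin, -1.53 ± 0.16), through which filtered proteins enter, and Pdzk1 (-2.15 ± 0.18), which anchors carriers, fell. Ezr, ezrin, rose by 0.40 ± 0.09. Solute carriers in general fell more often than they rose, 132 against 36 of 362. In the organic ion family Slc22, 17 of 23 fell, among them Slc22a22 (-2.99 ± 0.21) and Slc22a30 (-2.84 ± 0.22). Carriers that rose included those of cystine (Slc7a11), neutral amino acids (Slc38a2, 1.59 ± 0.14, and Slc7a5, 1.57 ± 0.15), lactate (Slc16a1, 2.13 ± 0.21), phosphate (Slc20a1, 1.92 ± 0.22) and mitochondrial ATP (Slc25a24, 2.72 ± 0.17). Within monocarboxylate carriers, Slc16a7 (-2.33 ± 0.15), Slc16a4 (-2.21 ± 0.16) and Slc16a9 (-2.19 ± 0.20) fell while Slc16a1 rose.

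**Figure D3:**
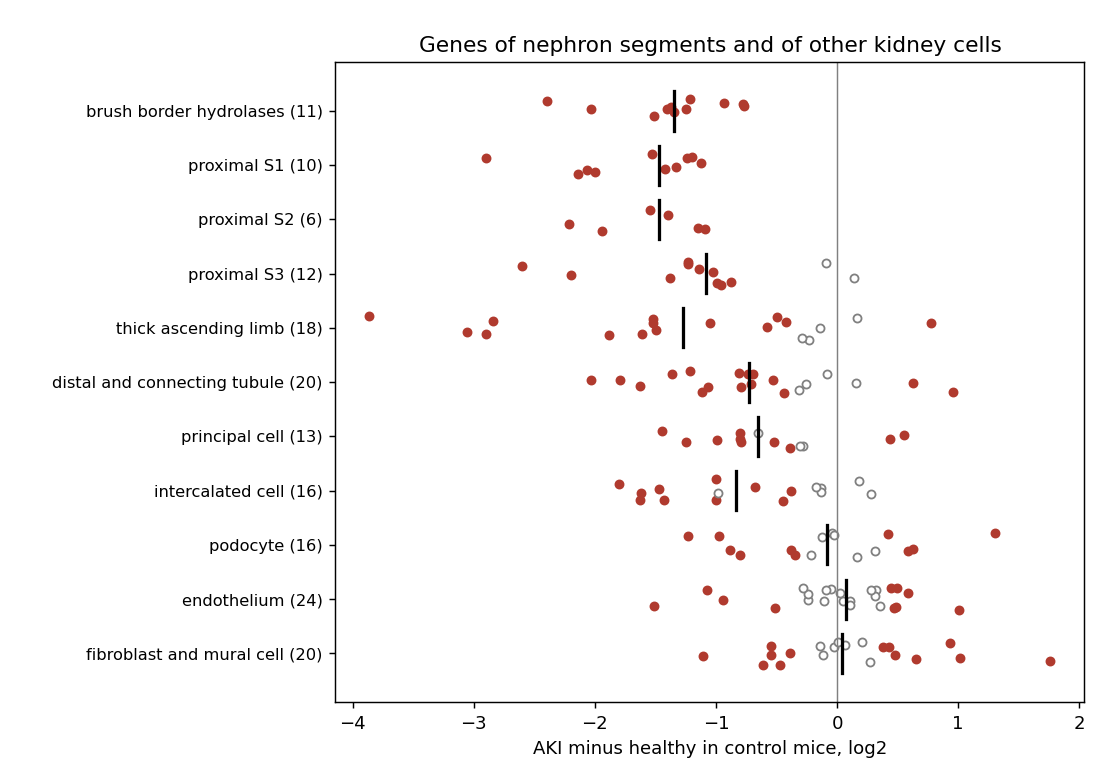
Differences between AKI and healthy arrays (log2) of the genes in 11 lists, 1 point per gene, filled where the gene passed and open where it did not, with a black bar at the median and the number of genes in brackets. The proximal, loop, distal and collecting duct lists have medians left of 0, and the lists of podocytes, endothelium and fibroblasts have medians between -0.09 and 0.07.

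Genes of the more distal segments fell too. In the thick ascending limb 13 of 18 fell and 1 rose. Slc12a1, the sodium-potassium-chloride carrier blocked by loop diuretics, was at 12.18, 12.09 and 12.10 on the healthy arrays and 8.71, 9.32 and 9.65 on the AKI arrays. AKI replicate 1 was the lowest and replicate 3 the highest of the injured arrays, and the difference was -2.89 ± 0.18, adjusted p = 4.02e-08. Kcnj1 (-1.61 ± 0.17), Bsnd (-1.52 ± 0.15) and Casr (-1.52 ± 0.12), of the same segment, fell. Umod, a common marker of this segment, was at 13.25, 13.17 and 13.12 on the healthy arrays and 12.70, 13.03 and 13.10 on the AKI arrays and did not pass (-0.23 ± 0.12, adjusted p = 0.18). In the distal convoluted and connecting tubule 14 of 20 fell and 2 rose. The calcium genes Calb1 (-1.22 ± 0.14) and Slc8a1 (-1.62 ± 0.18) fell, the calcium channel Trpv5 (0.16 ± 0.17) and the magnesium channel Trpm6 (-0.25 ± 0.14) did not pass, and Sgk1, a kinase induced by steroids, rose by 0.95 ± 0.16 (adjusted p = 0.000264). The regulators Klhl3 (-1.36 ± 0.10) and Wnk4 (-1.12 ± 0.12) of the thiazide-sensitive carrier fell. In the collecting duct 18 of 29 fell and 2 rose. Among principal cell genes Aqp3 (-1.25 ± 0.15) and the sodium channel subunits Scnn1a (-0.80 ± 0.14) and Scnn1g (-0.80 ± 0.15) fell, and Aqp2 (-0.65 ± 0.25) did not pass. Among intercalated cell genes the bicarbonate exchangers Slc4a1 (-1.8 ± 0.13) and Slc26a4 (-1.43 ± 0.14) and the proton pump subunit Atp6v1b1 (-1.47 ± 0.13) fell, while Foxi1, the factor that defines the cell (-0.14 ± 0.15), did not pass.

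Transcription factors that maintain tubule identity fell in part. Hnf4a, which drives brush border and metabolic genes of proximal tubule, was at 12.52, 12.48 and 12.38 on the healthy arrays and 10.76, 10.89 and 11.18 on the AKI arrays. The groups did not overlap and Hnf4a fell by 1.52 ± 0.16 (adjusted p = 5.63e-06). Its relative Hnf4g fell by 1.14 ± 0.20 (adjusted p = 0.000412), and Maf fell by 1.54 ± 0.14 (adjusted p = 8.28e-07). Ppargc1a, a coactivator of mitochondrial genes, was at 10.46, 10.45 and 10.48 on the healthy arrays and 8.79, 8.93 and 9.18 on the AKI arrays and fell by 1.5 ± 0.19 (adjusted p = 1.98e-05). Klf15 (-1.8 ± 0.16), Esrrb (-0.98 ± 0.13), Esrrg (-0.99 ± 0.14) and the loop and distal factor Sim1 (-0.74 ± 0.11) fell. In all 18 of 45 factors fell and 4 rose, the latter number being 0 to 2 without any one control array other than AKI replicate 1. Foxa2 (-0.02 ± 0.11), Irx3 (0.01 ± 0.13) and Sall1 (0.01 ± 0.12) did not pass. Homeobox genes of the Hox clusters fell in 8 of 38 cases (21.1%, against 15.1% over all genes), and in 5 without any one of AKI replicate 2, healthy replicate 1 or healthy replicate 3.

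The short HNF1 motif (GTTAAT, any 2 bases, then TT, on either strand), which the longer HNF1 motif searched with it contains, occurred in the windows of 4.01% of the 623 genes that fell at least 2-fold and had a window. Over all genes with a window the share was 1.01%, and among the 396 that rose at least 2-fold it was 0.505%. The HNF4 letters CAAAGTCCA occurred in 1.93% of the genes that fell, 0.564% of all and 0.505% of those that rose. Hnf4a itself is one of the genes with the HNF1 letters. The stretches below are shown as examples, chosen after their matches were seen. Hnf4a (chr2:163547035-163547154, plus strand), Slc22a6 (chr19:8617876-8617995, plus strand), which secretes organic anions and fell by 1.2 ± 0.23, Hao2 (chr3:98893231-98893350, minus strand), a peroxisomal oxidase that fell by 1.88 ± 0.18, and F13b (chr1:139501587-139501706, plus strand) hold HNF1 letters in capitals. Agxt2 (chr15:10358413-10358532, plus strand) and Aadat (chr8:60506004-60506123, plus strand) are aminotransferases that fell (-1.78 ± 0.18 and -2.18 ± 0.20) and hold HNF4 letters in capitals. All are build GRCm38.p6, from RefSeq, read toward the gene start, and the last base is the one before it.
Hnf4a: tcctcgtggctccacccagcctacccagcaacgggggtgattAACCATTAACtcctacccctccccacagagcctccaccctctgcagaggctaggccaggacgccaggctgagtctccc
Slc22a6: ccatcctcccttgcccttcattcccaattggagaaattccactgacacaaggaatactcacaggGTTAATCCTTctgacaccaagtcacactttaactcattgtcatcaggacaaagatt
Hao2: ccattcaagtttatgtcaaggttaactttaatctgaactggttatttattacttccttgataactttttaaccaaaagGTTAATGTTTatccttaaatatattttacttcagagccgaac
F13b: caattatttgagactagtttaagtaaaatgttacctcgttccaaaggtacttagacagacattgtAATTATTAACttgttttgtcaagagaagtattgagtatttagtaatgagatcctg
Agxt2: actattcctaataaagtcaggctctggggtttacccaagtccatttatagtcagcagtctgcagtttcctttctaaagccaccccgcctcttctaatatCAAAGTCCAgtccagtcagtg
Aadat: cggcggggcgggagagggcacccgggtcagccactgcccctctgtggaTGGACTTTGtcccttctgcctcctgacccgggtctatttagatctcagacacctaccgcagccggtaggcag
The capitals run in reverse complement in Hnf4a, F13b and Aadat.

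**Figure D4:**
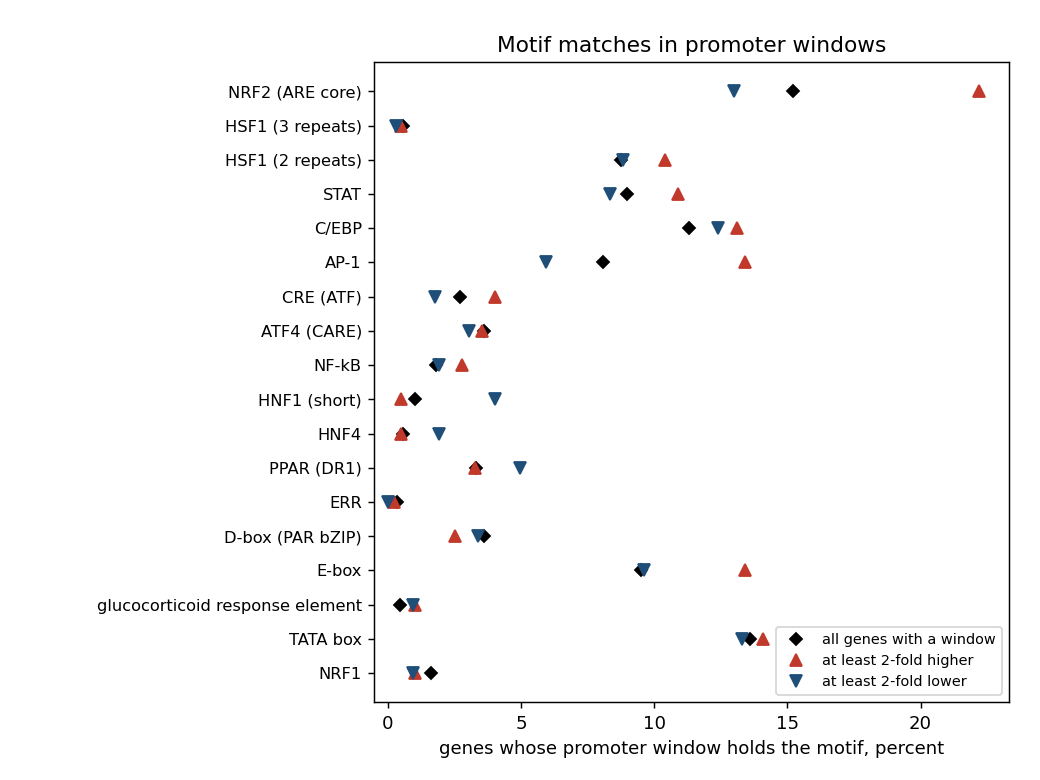
Percent of genes whose promoter window holds the letters of each motif, for 18 of the motifs searched, over all 15614 genes with a window (black diamonds) and over genes at least 2-fold higher (red triangles up, 396 genes) or lower (blue triangles down, 623 genes). The red symbol lies farthest to the right of the diamond for the NRF2 core (22.2% against 15.2%), AP-1 (13.4% against 8.08%) and the E-box (13.4% against 9.5%). The blue one does so for short HNF1 (4.01% against 1.01%). Smaller shifts to the right occur for other motifs, such as CRE (red, 4.04% against 2.72%) and PPAR (blue, 4.98% against 3.3%).

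Of the other motifs searched, the NRF2 core TGACNNNGC was in 22.2% of genes that rose at least 2-fold, 13% of those that fell and 15.2% of all, and it can overlap an AP-1 match. The E-box CACGTG was in 13.4% of those that rose, 9.63% of those that fell and 9.5% of all, and the next shares are in the same order. The STAT letters were in 10.9%, 8.35% and 8.99%, and the C/EBP letters TTGCNNAA in 13.1%, 12.4% and 11.3%. The GC box GGGCGG, a motif of promoters rich in G and C, was in 71.2%, 55.2% and 52.9%. For 2 motifs the share in genes that rose was slightly below that of all. The ATF4 letters TGATGNAA were in 3.54%, 3.05% and 3.62%, and the HSF1 motif of 3 repeats in 0.505% (2 genes), 0.321% (2 genes) and 0.564%. The shorter HSF1 motif TTCNNGAA was in 10.4%, 8.83% and 8.75%. The ERR letters TCAAGGTCA were in 0.253%, 0% and 0.346%.

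Amino acid breakdown genes fell: 35 of 41 fell and 0 rose, with a median of -1.31 against 0.00 over all genes. Several enzymes of the tryptophan pathway fell. Acmsd, which steers it away from NAD, was at 10.57, 10.55 and 10.20 on the healthy arrays and 6.97, 7.26 and 8.07 on the AKI arrays (difference -3.00 ± 0.24), and AKI replicate 3 lay between the other AKI arrays and the healthy ones. Afmid (-2.73 ± 0.20), Haao (-1.82 ± 0.11) and Aadat fell. Hykk, a kinase of hydroxylysine, was at 12.37, 11.90 and 12.04 on the healthy arrays and 8.24, 8.52 and 9.52 on the AKI arrays (difference -3.34 ± 0.29). Branched-chain enzymes such as Ivd (-1.57 ± 0.11), the proline enzyme Aldh4a1 (-1.8 ± 0.13) and Aspa, which splits N-acetylaspartate (-3.14 ± 0.21), fell, while Gldc (-0.10 ± 0.20) and Ddah2 (0.21 ± 0.14) did not pass. Gatm, which makes the creatine precursor, was at 12.96, 12.98 and 13.06 on the healthy arrays and 9.24, 9.17 and 10.18 on the AKI arrays (difference -3.47 ± 0.21), and the next enzyme Gamt fell by 1.47 ± 0.16. Against this direction Arg2, mitochondrial arginase, was at 7.45, 7.14 and 7.39 on the healthy arrays and 10.71, 10.91 and 10.88 on the AKI arrays, a rise of 3.51 ± 0.20 (adjusted p = 3.15e-08). The polyamine enzymes Srm (1.42 ± 0.11) and Smox (1.66 ± 0.12) rose and Odc1 (-1.25 ± 0.20) fell. Xdh, which makes urate, rose by 2.30 ± 0.17 (adjusted p = 1.63e-07), and Cndp1, which cuts carnosine, fell by 3.39 ± 0.18 (adjusted p = 1.58e-08).

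Mitochondrial energy genes fell by smaller amounts, and none of the respiratory chain rose. Over the respiratory chain 55 of 69 fell and 0 rose (median -0.52). By complex, 20 of 28 fell in complex I, 4 of 4 in II, 8 of 9 in III, 10 of 13 in IV and 13 of 15 in V. Ndufs1 was at 10.95, 10.85 and 10.95 on the healthy arrays and 9.56, 9.83 and 10.09 on the AKI arrays (difference -1.09 ± 0.13). Cox7a1, the form of a complex IV subunit typical of muscle and heart, fell (-1.78 ± 0.16), and Cox10 (0.02 ± 0.10) and Ndufa7 (-0.06 ± 0.13) did not pass. Citric acid cycle genes fell in 10 of 13 cases, with Idh2 at -1.28 ± 0.11. The kinases that shut off pyruvate dehydrogenase moved apart: Pdk4 was at 7.55, 7.60 and 8.18 on the healthy arrays and 11.06, 11.68 and 11.33 on the AKI arrays, a rise of 3.58 ± 0.25 (adjusted p = 1.02e-07), while Pdk2 fell by 1.99 ± 0.19 (adjusted p = 1.48e-06), with Pdk3 (-1.43 ± 0.17) and Pdk1 (-0.90 ± 0.12) falling as well.

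Genes of fat oxidation fell and several of fat storage rose. In mitochondrial oxidation 18 of 25 fell and 0 rose, and in peroxisomes 21 of 34 fell and 0 rose. Acsm5 (-2.54 ± 0.13), a medium-chain synthetase, Amacr (-2.69 ± 0.16) and Pecr (-2.07 ± 0.12) were among those that fell. Acadl (0.00 ± 0.12), Eci1 (-0.05 ± 0.13) and Pex14 (-0.06 ± 0.11) did not pass. Plin2, which coats lipid droplets, was at 9.35, 9.84 and 9.41 on the healthy arrays and 12.68, 12.85 and 12.72 on the AKI arrays (difference 3.21 ± 0.31), and Angptl4 (1.87 ± 0.30), which inhibits lipoprotein lipase, and Plin4 (0.92 ± 0.11) rose. The lipase itself, Lpl, fell by 1.55 ± 0.22. Cholesterol synthesis genes fell in 13 of 22 cases, among them Cyp51 (-2.12 ± 0.13) and Idi1 (-1.92 ± 0.20), with Msmo1 (1.09 ± 0.13) the one that rose and Sqle (0.07 ± 0.14) not passing.

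Genes of glucose production fell in part, and those of glycolysis moved in both directions. G6pc, which releases glucose, was at 12.90, 12.28 and 12.49 on the healthy arrays and 9.97, 9.53 and 10.82 on the AKI arrays (difference -2.45 ± 0.26), and Fbp1 (-1.31 ± 0.12), Pck1 (-1.25 ± 0.27) and Slc37a4 (-1.55 ± 0.19) fell, so that 5 of 8 fell and 0 rose. Glycolysis genes rose in 7 (28%) and fell in 8 (32%) of 25 cases, against 13.6% and 15.1% over all genes. Slc2a1, the general glucose carrier, rose by 1.14 ± 0.12 (adjusted p = 3.1e-06) and Hk2 by 0.64 ± 0.14 (adjusted p = 0.00231), while Khk, which uses fructose (-1.18 ± 0.12), and Aldoc (-1.26 ± 0.16) fell. Known targets of hypoxia factors did not move as one, with 5 of 26 higher (19.2%) and 10 lower (38.5%). Adm (1.85 ± 0.14) and Hilpda (0.97 ± 0.10) rose, Car12 (-2.24 ± 0.19) and Car9 (-1.30 ± 0.15) fell, and Kdm3a (-0.02 ± 0.16) and Epo (0.03 ± 0.21) did not pass.

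Several families of enzymes for drugs and steroids fell more often than they rose, but not all did. Of 16 sulfotransferases 2 rose and 2 fell (12.5% each, against 13.6% and 15.1% over all genes). Of 19 glutathione transferases 7 rose (36.8%) and 6 fell (31.6%). Hsd3b2, a steroid dehydrogenase, was at 10.46, 10.49 and 10.02 on the healthy arrays and 6.09, 6.08 and 6.59 on the AKI arrays (difference -4.07 ± 0.22), the largest fall of all genes and the 1 that fell more than 16-fold, and Hsd3b3 fell by 3.34 ± 0.22 (adjusted p = 8.66e-08). The cytochrome P450 family had 22 lower (25.6%) and 8 higher (9.3%) of 86. Cyp2d12 (-2.83 ± 0.14) and Cyp2j13 (-2.45 ± 0.27) fell and Cyp4a14 (2.23 ± 0.56), a fatty acid hydroxylase, rose. Of the aldo-keto reductases 8 of 15 fell (53.3%) and 3 rose (20%). Of the glucuronosyltransferases 6 of 10 fell and 0 rose, and of the carboxylesterases 6 of 16 fell and 0 rose. In the aldo-keto reductases Akr1c13 (1.82 ± 0.19) and Akr1c12 (1.06 ± 0.19) rose while their neighbours in sequence Akr1c14 (-2.73 ± 0.25), Akr1c18 (-2.41 ± 0.26) and Akr1c21 (-2.39 ± 0.12) fell. Aldh1a2, which makes retinoic acid, was at 7.14, 6.84 and 7.04 on the healthy arrays and 9.98, 10.24 and 10.64 on the AKI arrays (difference 3.28 ± 0.27). Members of these families are close in sequence, so a probe set may also read a relative.

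Of 47 genes of hormone and vasoactive systems 17 fell (36.2%) and 9 rose (19.1%), against 15.1% and 13.6% over all genes. The groups in this list differed. Of the vitamin D and klotho group 5 of 14 fell and 2 rose, and of the renin and angiotensin group 4 of 6 fell and 0 rose. In the prostaglandin group 5 of 14 fell and 4 rose. In the endothelin group 1 of 5 fell and 2 rose, and in the natriuretic and adenosine group 2 of 8 fell and 1 rose. Kl, klotho, the co-receptor of the phosphate hormone FGF23, was at 11.90, 12 and 11.97 on the healthy arrays and 9.65, 9.72 and 9.79 on the AKI arrays and fell by 2.24 ± 0.15 (adjusted p = 1.01e-07). The vitamin D receptor (Vdr, -1.46 ± 0.21), the parathyroid hormone receptor (Pth1r, -1.27 ± 0.15), the angiotensin receptor Agtr1a (-1.59 ± 0.14) and Ace fell, while Epo and Fgf23 (0.10 ± 0.19) did not pass. Endothelin (Edn1, 1.03 ± 0.13) and its receptor Ednrb (1.0 ± 0.17) rose. The prostaglandin enzyme Ptgs2 (COX-2) was at 5.95, 6.50 and 6.50 on the healthy arrays and 9.12, 8.15 and 7.77 on the AKI arrays and rose by 2.03 ± 0.25 (adjusted p = 2.28e-05). Hpgd, which inactivates prostaglandins, fell by 1.17 ± 0.13 (adjusted p = 1.06e-05). Entpd1, which degrades extracellular ATP, rose by 1.98 ± 0.16 (adjusted p = 3.61e-07). Sucnr1, the succinate receptor, was at 9.60, 9.15 and 9.43 on the healthy arrays and 5.62, 5.65 and 6.30 on the AKI arrays, a difference of -3.53 ± 0.20, adjusted p = 2.8e-08.

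Chemokine genes moved in both directions, and cytokine genes rose more often than they fell. Of cytokines 10 of 38 rose (26.3%) and 2 fell (5.26%), against 13.6% and 15.1% over all genes. Cxcl1, which draws neutrophils, was at 6.44, 6.62 and 6.55 on the healthy arrays and 8.48, 8.90 and 8.49 on the AKI arrays and rose by 2.08 ± 0.14 (adjusted p = 7.13e-08). Cxcl5 (0.63 ± 0.14) and Cx3cl1 (0.41 ± 0.09) rose, and Ccl5 (-0.07 ± 0.18), Ccl7 (-0.05 ± 0.13) and the interferon target Cxcl10 (-0.06 ± 0.29) did not pass. Cxcl12 fell by 1.76 ± 0.15 (adjusted p = 8.28e-07), Ccl28 fell by 2.85 ± 0.47 (adjusted p = 0.000293) and Il15 fell by 1.8 ± 0.22 (adjusted p = 1.88e-05). Of chemokines 8 of 34 rose (23.5%) and 6 fell (17.6%), against 13.6% and 15.1% over all genes, and the number that fell was 3 without healthy replicate 1 or without healthy replicate 2. Of complement genes 6 of 32 rose (18.8%) and 7 fell (21.9%), shares near those over all genes. C5ar1 (0.75 ± 0.11) and the regulator clusterin (Clu, 1.76 ± 0.15) were higher, the shields against complement Cd55 (-1.10 ± 0.18) and Cd59a (-1.2 ± 0.27) were lower, and the C1q chain C1qa (0.02 ± 0.14) did not pass.

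Markers of cells outside the nephron were read beside these values. Of 20 neutrophil genes 11 rose and 0 fell. S100a8, a calcium-binding protein that fills neutrophils, was at 4.55, 5.16 and 5.17 on the healthy arrays and 7.01, 7.39 and 6.62 on the AKI arrays (difference 2.05 ± 0.20), and Cxcr2 (1.66 ± 0.18), Retnlg (1.57 ± 0.19) and Csf3r (0.75 ± 0.11) rose with it. The lineage marker Ly6g (0.20 ± 0.15) and the granule genes Mpo (0.06 ± 0.16), Elane (0.03 ± 0.11), Ngp (0.08 ± 0.15) and Camp (-0.01 ± 0.18) did not pass. The mean log2 value over the neutrophil list was 5.23 to 5.40 on the healthy arrays and 6.20 to 6.49 on the AKI arrays. The median difference over this list was 0.48, and its mean includes Lcn2 (5.99). Of 22 monocyte and macrophage genes 3 rose (13.6%) and 2 fell (9.09%), against 13.6% and 15.1% over all genes. Cd14, a lipopolysaccharide receptor, was at 6.54, 6.58 and 6.47 on the healthy arrays and 10.37, 10.61 and 10.36 on the AKI arrays (difference 3.92 ± 0.23), and Cd68, a lysosomal protein, at 7.43, 7.35 and 7.12 on the healthy arrays and 10.07, 10.12 and 10.27 on the AKI arrays (difference 2.85 ± 0.17). These 2 and Itgam (0.99 ± 0.15) rose, whereas the defining Adgre1 (-0.23 ± 0.16), Cx3cr1 (-0.18 ± 0.12) and C1qb (-0.07 ± 0.16) did not pass and Csf1r (-0.85 ± 0.12) and Mertk (-0.88 ± 0.16) fell. The genes of antigen presentation H2-Aa (-1.38 ± 0.17), H2-Ab1 (-1.12 ± 0.20), H2-Eb1 (-1.17 ± 0.17) and Cd74 (-1.30 ± 0.25) fell together, while dendritic cell markers Flt3 (0.03 ± 0.12), Zbtb46 (-0.05 ± 0.14) and Xcr1 (-0.20 ± 0.17) did not pass. T, B and natural killer cell markers had 0 higher and 2 lower of 21, the latter 5 without AKI replicate 1 and 1 without AKI replicate 2 or healthy replicate 3. The mean over the monocyte and macrophage list was 6.73 to 6.88 on the healthy arrays and 7.08 to 7.15 on the AKI arrays. The median difference over this list was 0.03, and its mean includes Cd14 and Cd68. The part of infiltrating cells in these values was not tested.

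Liver and muscle genes were read as well. Of 23 hepatocyte genes 3 rose and 3 fell (13% each), near the 13.6% and 15.1% over all genes. Albumin (Alb) was at 7.53, 7.75 and 7.86 on the healthy arrays and 7.55, 8.09 and 8.08 on the AKI arrays and did not pass, nor did Apoa2 (-0.26 ± 0.12) or Serpinc1 (-0.20 ± 0.15). Apoc3 rose by 1.92 ± 0.24 (adjusted p = 1.92e-05) and Apoa1 by 0.57 ± 0.13, while Ttr, transthyretin, was at 12.78, 12.55 and 12.22 on the healthy arrays and 9.57, 9.33 and 9.33 on the AKI arrays and fell by 3.10 ± 0.18 (adjusted p = 3.51e-08). The mean over the list was 6.57 to 6.67 on the healthy arrays and 6.46 to 6.62 on the AKI arrays, which overlap. Of 19 skeletal muscle genes 0 rose and 1 fell. The one that fell was Pvalb, which distal convoluted tubule also makes (-2.03 ± 0.25), and Ckm (0.07 ± 0.14), Mb (-0.05 ± 0.17) and Acta1 (0.23 ± 0.12) did not pass. Endothelial genes rose in 6 (25%) and fell in 4 (16.7%) of 24 cases, against 13.6% and 15.1% over all genes. Cdh5 was at 0.58 ± 0.11, Kdr at -0.94 ± 0.11 and Ehd3, of glomerular capillaries, at -1.51 ± 0.21. Among podocyte genes Nphs1 (-0.04 ± 0.12) and Wt1 (0.17 ± 0.11) did not pass and Clic5 (-1.23 ± 0.19) fell, and among fibroblast and mural genes Tnc (1.76 ± 0.28) and Pdgfrb (1.02 ± 0.12) rose while Myh11 (-0.55 ± 0.10) and Itga8 fell.

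**Figure D5:**
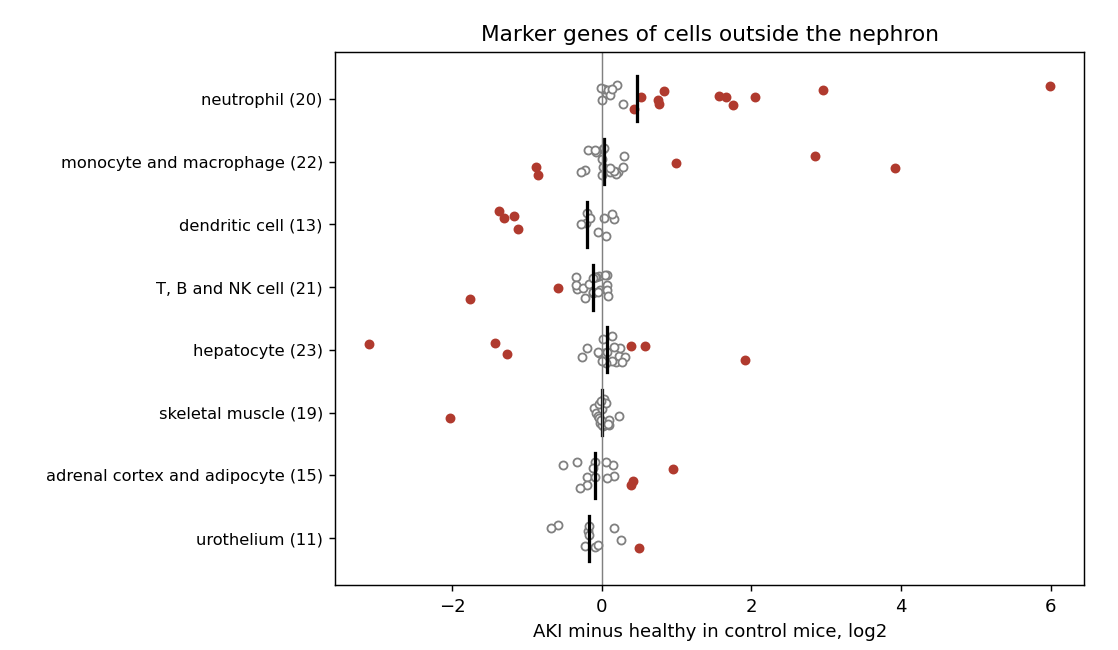
Differences between AKI and healthy arrays (log2) of marker genes of cells outside the nephron, 1 point per gene, filled where the gene passed and open where it did not, with a black bar at the median. Most lists centre near 0, the neutrophil list is shifted to the right, and single points such as Lcn2 (5.99), Cd14 (3.92) and Ttr (-3.10) lie far from their lists.

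Several runs of neighbouring genes passed in the same direction. Along the 19916 genes with a chromosome in the RefSeq table, 29 runs of at least 4 neighbouring measured genes passed in the same direction, 8 higher and 21 lower, and the longest held 5. With 13.6% of all genes higher and 15.1% lower, some runs would form if calls were scattered freely, and how many was not tested. The runs named below all hold related genes, and the longest are not among them. On chromosome 3 the run Fgg, Fga, Fgb and Plrg1 rose, Plrg1 being a splicing factor beside the fibrinogen genes (0.56 ± 0.10). On the same chromosome Hsd3b5 (-0.82 ± 0.14), Hsd3b2, Hsd3b3 and Hsd3b6 (-0.63 ± 0.16) fell. On chromosome 7 the serum amyloid genes Saa3 (0.99 ± 0.21), Saa4 (2.02 ± 0.33), Saa1 (2.74 ± 0.35) and Saa2 (1.31 ± 0.16) rose. On chromosome 8 the metallothioneins Mt3 (0.85 ± 0.14), Mt2 and Mt1 (1.92 ± 0.14), which bind zinc, rose together with Nup93 (0.83 ± 0.12), a nuclear pore gene. Mt2 was at 11.07, 11.16 and 11.36 on the healthy arrays and 13.99, 14.08 and 14.03 on the AKI arrays (difference 2.84 ± 0.17). Carboxylesterases Ces1c (-0.60 ± 0.14), Ces1d (-2.72 ± 0.17), Ces1e (-1.94 ± 0.14) and Ces1f (-1.43 ± 0.12), also on chromosome 8, fell, as did the carriers Slc22a29 (-1.65 ± 0.15), Slc22a30, Slc22a8 (-1.94 ± 0.18) and Slc22a6 on chromosome 19. Adjacent copies of a gene can share probe sequence, so such runs are not independent measurements.

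The same injury was measured in mice whose tubule lacks the glucocorticoid receptor, so the size of each response can be set beside it. The control response minus the receptor-deficient one passed in 2283 of the 19938 genes (11.5%; interaction term, limma). The control response was the more positive in 810 (4.06%) and the more negative in 1473 (7.39%). Of the 40 genes with the largest rise in control mice 38 differed, and 31 of the 40 also rose in receptor-deficient mice. Of the 40 with the largest fall 38 differed, and 14 of the 40 also fell in receptor-deficient mice. These genes were chosen for a large control response, so that choice by itself favours a larger value in control mice. For genes described above, the control response minus the receptor-deficient one was -1.44 ± 0.23 (adjusted p = 0.00112) for Hnf4a, 0.88 ± 0.20 (adjusted p = 0.0107) for Nop58 and 2.04 ± 0.29 (adjusted p = 0.000562) for Hmox1. For Umod it was -0.16 ± 0.17 (adjusted p = 0.623) and did not pass.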

How the data were processed

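Renal cortex RNA from 12 samples in 4 groups was hybridised to Affymetrix mouse gene arrays after amplification of small RNA amounts (RNeasy Micro and Nugen Ovation kits, per the labels' protocols). The deposited log2 values were made by the authors with RMA, which corrects background, normalises between arrays and combines the probes of each set, in the R packages affy and oligo (versions not given in the sources used here), per the submitters' processing notes. The log base is not stated, and the array maxima of 14.73 to 14.9 fit log2. RMA assumes like distributions on all arrays, so a shift of all genes would not be seen, and cross-hybridisation between related genes stays in the values. Of 35556 probe sets, 21789 had exactly 1 gene symbol in the platform annotation, 1621 had several and 12146 had none. They gave 19938 genes, 999 of them with several probe sets. No filter on dim genes was used.

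A linear model with 4 group means was fitted to all 12 arrays with limma 3.58.1 in R 4.3.3 (8 residual degrees of freedom, 6.26 prior), and p-values were adjusted over all genes. Tested on simulated data for the AKI comparison in control mice over 19938 genes, it recovered 44%, 92%, 100% and 100% of genes changed by 0.5, 1, 1.5 and 2 on the log2 scale, with 3 false calls among 171. Only 50 genes were changed at each size, far fewer than were called in the data. The simulated noise was independent between genes and alike on all arrays, which leaves out an array that stands apart. These rates therefore need not hold for the data. Replicate numbers do not pair the samples. The number of arrays limits the precision. Promoters came from the RefSeq table of build GRCm38.p6, which matched 15614 genes, 2637 of them with several windows, of which any match counted. No level of 1 gene was set against that of another.

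The genes, lists and families were chosen with earlier results of these data known. Families are defined by symbol alone. Named genes are the 40 largest changes in each direction with no overlap between arrays, up to 5 members of each role in each list with the smallest p in each direction and up to 3 with the largest p among those not called, up to 4 extremes of each family in each direction, the 20 smallest p-values, neighbour runs and markers. Agxt2 and Aadat lie outside this rule and were chosen for their promoter matches. Alternatives were the arrays in the fit, replicate block, normalisation, array weights, variance prior, dim genes, probe set choice, threshold and leaving out each array.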

Additional observations from a re-analysis of the deposited data

Results flagged for a closer look

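The response to AKI was set against that of receptor-deficient mice for the 12 genes with the largest rise and the 12 with the largest fall in control mice (interaction term, limma, adjusted over all genes), and these genes stood out because the difference between the responses passed. Over all genes it passed in 2283. Since the genes were chosen for a large response in control mice, a larger value there is favoured by the choice.

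Among genes that rose, the control response exceeded the receptor-deficient response most in Fgg, by 4.92, where the responses were 6.16 and 1.24. For Krt20 the excess was 4.70, for Fgb 4.38 and for Fga 3.30. It was 2.76 for Lrg1, a secreted acute phase glycoprotein, 2.62 for Havcr1, the injury marker KIM-1, and 2.58 for Hspb1. It was 2.53 for Cd14, 2.41 for Fosl1, 2.30 for Slc7a11 and 1.99 for Akr1b8. Lcn2, whose responses were 5.99 and 3.70, did not pass (2.29 ± 0.77, adjusted p = 0.0726).

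Among genes that fell, the control response minus the receptor-deficient one was -3.43 for Hsd3b2, -3.39 for Hsd3b3, -3.26 for Gatm and -3.11 for Sucnr1. It was -3.03 for Hykk, -2.97 for Sectm1b, -2.75 for Egf and -2.74 for St8sia1, a ganglioside synthase. It was -2.59 for Aspa, -2.34 for Cndp1 and -1.07 for Ttr. The responses of Hsd3b3 were -3.34 in control mice and 0.06 in receptor-deficient mice, and those of Gatm were -3.47 and -0.21. Car3, with -3.17 and -1.98, did not pass (-1.2 ± 0.55, adjusted p = 0.205).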

How the results depend on the processing

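With array quality weights 9648 genes were called, 4277 higher and 5371 lower (44.3% higher), and the interaction passed in 4905. The weights of control AKI replicates 1, 2 and 3 were 0.182, 5.088 and 0.621, so the control AKI values of this fit rest mostly on replicate 2. Tested against a change of 1.2-fold (limma treat), 2870 were called, 1293 higher and 1577 lower (45.1% higher). With the replicate number as a block, 5368 were called, 2511 higher and 2857 lower (46.8% higher), 1308 at least 2-fold, and the interaction passed in 2013. The deviations of same-numbered arrays correlated at -0.41, -0.20 and -0.01, so the numbers are not used as pairs. Leaving out 1 control array at a time gave 4651 to 6008 calls, 2211 to 2896 higher and 2437 to 3112 lower, 1250 to 1441 at least 2-fold and 44.6% to 48.2% higher, and leaving out any array gave 1556 to 2696 for the interaction. The other alternatives (6 control arrays alone, quantile or cyclic loess normalisation, median centring, a trended robust prior, genes above the median level, the most variable or the mean probe set, an adjusted p of 0.01) gave 4125 to 6072 calls. Of the 5715 called genes, 4136 were called in every fit without 1 control array. Of 361 called genes named here 355 were, the exceptions being Bhlhe41, Cct6b, Cdh2, Eif2ak1, Nusap1 and Tfpi2, and no named gene that was called changed sign. Of the named called genes, 19 lost the call under some alternative, all of them against 1.2-fold. Cdkn1b also lost it with its most variable probe set, these exceptions at an adjusted p of 0.01, Nusap1 and Bhlhe41 with the 6 control arrays alone, and Bhlhe41 with the replicate block, quantile, cyclic loess and median scaling. Counts of 0 to 2 in a list or family can change by 1 or 2 genes when 1 array is left out, as for keratins (2 lower without AKI replicate 1) and heat shock genes (1 lower without it). With 3 arrays a group and a median standard error of 0.13, small changes are detectable only in part.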

Other observations

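Lysosomal genes moved in both directions after AKI in control mice, with 8 of 32 higher and 14 lower, against 13.6% and 15.1% over all genes. Cathepsins L (Ctsl, 1.76 ± 0.12), D (Ctsd, 1.09 ± 0.10) and C (Ctsc, 1.38 ± 0.17), which digest protein, and Gla (1.17 ± 0.15) rose. Arsb (-1.43 ± 0.18), Man2b1 (-0.83 ± 0.11) and Ids (-0.87 ± 0.13), which degrade sugar chains as Gla does, fell. Among autophagy genes 3 of 28 rose (5 without AKI replicate 1) and 10 fell. The cargo receptor Sqstm1 was at 11.75, 11.73 and 11.60 on the healthy arrays and 13, 12.79 and 12.74 on the AKI arrays and rose by 1.15 ± 0.12 (adjusted p = 5.96e-06), whereas Gabarapl1 (-1.24 ± 0.11), which forms the membrane, and the mitophagy kinase Pink1 (-1.04 ± 0.13) fell. Tfeb, the factor that drives lysosome genes, did not pass (0.01 ± 0.10), and its relative Tfe3 rose by 0.73 ± 0.11.

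Zinc carriers were divided as well, with 7 of 24 higher (29.2%) and 4 lower (16.7%), against 13.6% and 15.1% over all genes. The importer Slc39a6 rose by 1.70 ± 0.13 and Slc39a5 fell by 1.0 ± 0.13, and the exporter Slc30a2 fell by 1.66 ± 0.19. Of complement pathway genes 3 of 19 rose and 3 fell (15.8% each, against 13.6% and 15.1% over all genes, and 5 lower without AKI replicate 3), with C8a at -1.41 ± 0.12 and Cfb at -0.89 ± 0.11. Defb29, a beta-defensin, fell by 2.17 ± 0.16 (adjusted p = 1.41e-07) while Defb1 rose by 0.73 ± 0.13. Olfactory receptors were called in 4 higher and 4 lower of 1027 cases. Without AKI replicate 1 the number lower was 35, and without AKI replicate 3 the number higher was 15.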
